A study of Mus musculus with 4 samples.

Results

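The genes described here mark B cells and the plasma cells that B cells become. There are 30 of them, taken from a list of names, and all 30 were found among the 23074 gene symbols of the deposited gene tables. Not all of them are limited to these cells, since Xbp1, Sdc1 and Cd38 are also active in gut epithelium, and Pigr is a gene of the epithelium. RNA was measured by sequencing in 4 libraries of colon from mice aged 6 weeks, each from the 2 cm next to the caecum. The 2 mutant libraries had the genotype Nkx2.2flox/flox; Villin-Cre/+, in which the Villin promoter drives Cre in intestinal epithelium and both alleles of the transcription factor gene Nkx2-2 are floxed. The 2 control libraries had the genotype Nkx2.2flox/+, with 1 floxed allele and no Cre named. A floxed allele is therefore shared by every library. Strain is given as mixed, without sex or litter, and whether a group's libraries are of different animals is not stated.

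B cells recognise antigen through surface immunoglobulin, which signals through the CD79A and CD79B chains. In the gut they gather in lymphoid follicles of the wall, and their descendants, plasma cells, lie in the lamina propria and secrete immunoglobulin A. The J chain joins immunoglobulin A molecules, and the polymeric immunoglobulin receptor, made by epithelium, carries them into the lumen. In whole tissue, fewer cells of a type and less RNA per cell cannot be told apart.

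Control 1 stood apart from the other 3 libraries in these genes. It was the highest library in 28 of the 30, where it was in 45.6% of all tested genes, and each group comparison is given with and without it. Values are FPKM, that is, fragment numbers corrected for the length of the transcript and for library size. The depth relative to control 1 was 0.464 in mutant 1, 1.03 in mutant 2 and 1.13 in control 2, so low values in mutant 1 rest on the fewest fragments. Fragment numbers given below are implied by the width of the authors' 95% interval, and cover counting error only. The targeted gene Nkx2-2 had 0.125 and 0.351 FPKM in the mutants, against 0.724 and 0.609 FPKM in the controls, on 1 and 4.7 implied fragments against 16.4 and 15.4. Colon epithelium genes such as Car1, Lgals4 and Krt8 were abundant in each library, with Car1 at 17320 and 16278 FPKM in the mutants and 15112 and 22062 FPKM in the controls.

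The antigen receptor chains were about as abundant in both mutants and control 2, and far higher in control 1. Cd79a had 6.01 and 4.78 FPKM in mutants 1 and 2, against 39.0 FPKM in control 1 and 4.21 FPKM in control 2. Cd79b had 4.48 and 4.69 FPKM in the mutants, against 45.1 and 3.51 FPKM in controls 1 and 2. Between the control libraries, control 1 over control 2 was 9.25-fold for Cd79a (95% interval 7.33 to 11.8) and 12.8-fold for Cd79b (9.83 to 17.0). These intervals are exact binomial ones on the implied fragments, and say how 2 libraries differ, not 2 conditions. In both genes the mutants lay above control 2 and far below control 1, so the groups overlapped.

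Genes that act on the receptor's signal were also highest in control 1, though Blnk by a small margin. Blk, a Src family kinase of B cells, had 0.631 and 0.341 FPKM in the mutants, against 5.86 FPKM in control 1 and 0.208 FPKM in control 2. The scaffold gene Bank1 had 0.282 and 0.402 FPKM in the mutants and 4.13 and 0.368 FPKM in controls 1 and 2. Cd22, an inhibitory coreceptor, had 1.48 and 0.872 FPKM in the mutants and 6.66 and 0.696 FPKM in the controls. In Bank1 and Cd22 the mutants and control 2 again lay far below control 1. Cd72, another inhibitory coreceptor, differed less, with 5.80 and 6.51 FPKM in the mutants against 14.7 and 4.67 FPKM in controls 1 and 2. Blnk, the adaptor that links the receptor to its downstream enzymes, was level between the controls. It had 43.5 and 56.2 FPKM in the mutants, against 59.2 and 59.1 FPKM in the controls, and control 1 over control 2 was 1.00-fold (0.938 to 1.07). In the mutants and control 2, Blnk was far above Cd79a and Cd79b, and which cells its RNA came from was not tested.

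**Figure D1:**
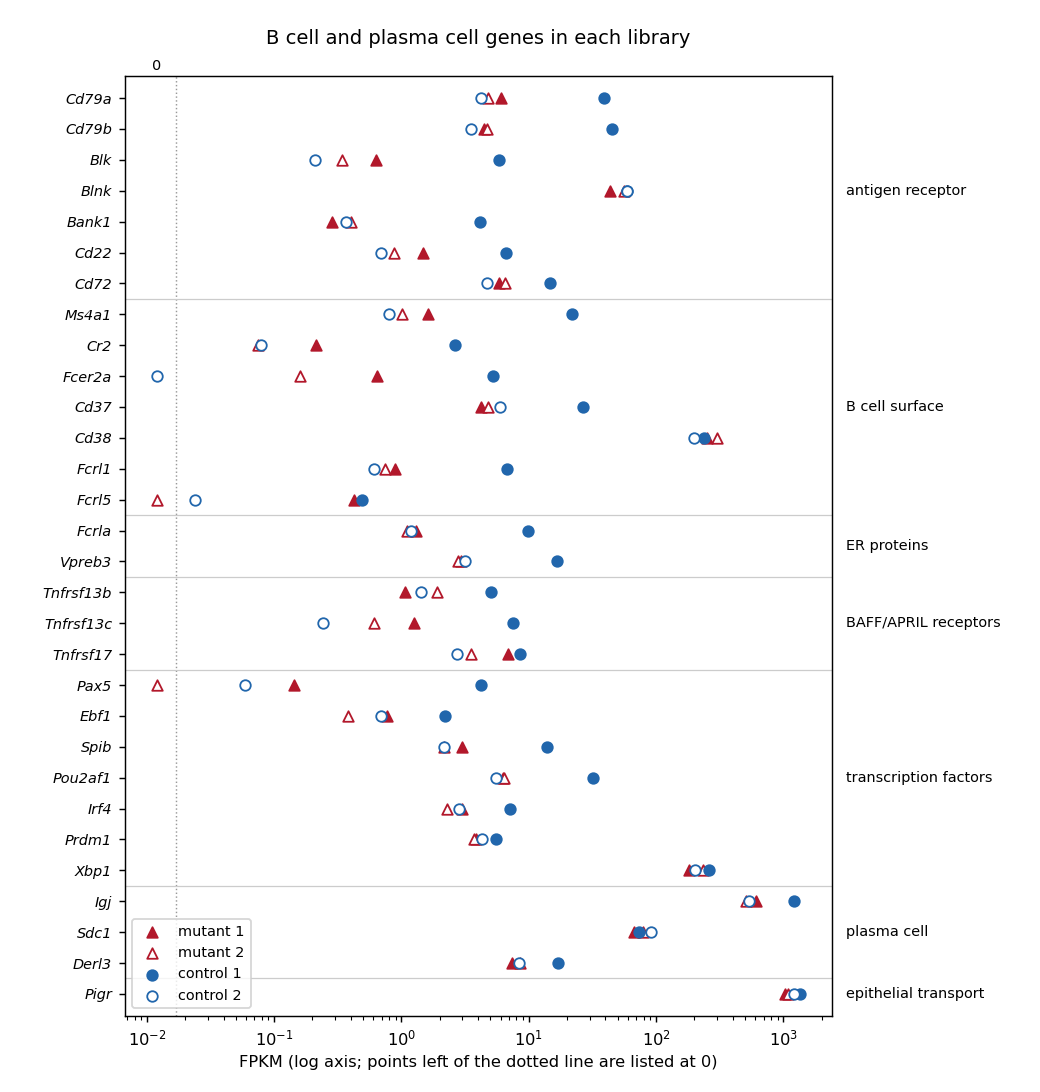
FPKM of each B cell and plasma cell gene (rows, grouped by role) on a log axis, with triangles for mutants 1 and 2 and circles for controls 1 and 2. Control 1 is the highest point in 28 of 30 genes. The other 3 libraries lie close together in genes such as Cd79b and Pou2af1. They lie apart in low genes such as Tnfrsf13c, Cr2 and Fcer2a.

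Surface proteins of mature B cells gave wide gaps between the controls. Ms4a1, which encodes CD20, had 1.62 and 1.01 FPKM in the mutants, against 21.7 FPKM in control 1 and 0.796 FPKM in control 2, a 27.3-fold difference between the controls (18.3 to 42.5). Cr2, the complement receptor CD21 of B cells and follicular dendritic cells, had 0.214 and 0.0751 FPKM in the mutants, against 2.63 and 0.0784 FPKM in controls 1 and 2. That is 9 and 7 implied fragments in the mutants, and 238 and 8 in the controls. Fcer2a, the low-affinity immunoglobulin E receptor CD23, had 0.639 and 0.158 FPKM in the mutants and 5.21 FPKM in control 1, and was listed at 0 in control 2. In these surface genes only control 1 was above 2 FPKM, and the mutants and control 2 lay at the low end together.

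The tetraspanin gene Cd37 had 4.22 and 4.81 FPKM in the mutants, against 26.5 and 5.96 FPKM in controls 1 and 2. Fcrl1, an Fc receptor-like protein of B cells, had 0.896 and 0.746 FPKM in the mutants and 6.77 and 0.611 FPKM in the controls. Fcrl5, of the same family, stayed under 0.5 FPKM everywhere and was the 1 gene of the 30 too low to test. It had 0.420 and 0 FPKM in the mutants and 0.490 and 0.0240 FPKM in the controls, on 5.1, 0, 15.4 and 1 implied fragments. Cd38, an enzyme that consumes NAD and is not limited to B cells, was not highest in control 1. Its levels were 250.5 and 301.8 FPKM in the mutants, against 237.4 and 197.4 FPKM in the controls. Both mutants thus lay above both controls, as they did in 3.39% of all tested genes.

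Both genes for proteins of the B cell endoplasmic reticulum were several-fold higher in control 1. Fcrla had 1.29 and 1.11 FPKM in the mutants, against 9.84 and 1.18 FPKM in controls 1 and 2. Vpreb3 had 2.92 and 2.79 FPKM in the mutants and 16.6 and 3.15 FPKM in the controls. In both, the mutants and control 2 lay close together and control 1 lay far above them.

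The receptors for the survival factors BAFF and APRIL were all highest in control 1, by different factors. Tnfrsf13c, the BAFF receptor of mature B cells, had 1.26 and 0.607 FPKM in the mutants, against 7.51 FPKM in control 1 and 0.243 FPKM in control 2, and control 1 over control 2 was 31.0-fold (14.7 to 78.0). Tnfrsf13b, which encodes TACI, had 1.06 and 1.91 FPKM in the mutants and 5.04 and 1.42 FPKM in the controls. Tnfrsf17, the receptor BCMA of plasma cells, had 6.89 and 3.53 FPKM in the mutants and 8.49 and 2.74 FPKM in the controls, a 3.10-fold difference between the controls (1.99 to 4.97). The intervals of Tnfrsf13c and Tnfrsf17 do not overlap. The ligand genes were closer between the controls, with BAFF (Tnfsf13b) at 5.86 and 6.66 FPKM in the mutants and 10.2 and 6.48 FPKM in the controls, and APRIL (Tnfsf13) at 27.2 and 23.7 FPKM in the mutants and 31.7 and 25.8 FPKM in the controls.

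Among the transcription factors, Pax5 differed most between the controls, and Prdm1 and Xbp1 of plasma cells least. Pax5, which holds cells in the B cell fate, had 0.143 and 0 FPKM in the mutants, against 4.19 and 0.0589 FPKM in controls 1 and 2. Outside control 1 that is 1 implied fragment in mutant 1, none in mutant 2 and 1 in control 2, so the control ratio of 71.1 has an interval of 12.3 to 2852. Spib, an Ets family factor of B cells and of the antigen-sampling M cells of the epithelium, had 2.995 and 2.17 FPKM in the mutants and 13.99 and 2.15 FPKM in the controls. Spib thus had a smaller gap than Pax5, with more RNA in the other 3 libraries. Pou2af1, a coactivator of octamer-binding factors, had 6.31 and 6.36 FPKM in the mutants and 31.7 and 5.54 FPKM in the controls. Ebf1, which acts with Pax5 early in the lineage and is also made by stromal cells, had 0.772 and 0.379 FPKM in the mutants and 2.22 and 0.693 FPKM in the controls.

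Irf4, needed in activated B cells and plasma cells, had 2.97 and 2.27 FPKM in the mutants, against 7.10 and 2.81 FPKM in controls 1 and 2. Prdm1, the Blimp-1 gene that closes the B cell program, had 3.82 and 3.72 FPKM in the mutants and 5.49 and 4.25 FPKM in the controls. Xbp1, the factor that expands the secretory apparatus, had 180.1 and 232.9 FPKM in the mutants and 258.6 and 202.8 FPKM in the controls. Control 1 over control 2 was 2.53-fold for Irf4 (2.15 to 2.98), 1.29-fold for Prdm1 (1.12 to 1.49) and 1.28-fold for Xbp1 (1.23 to 1.32).

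Igj, Sdc1 and Pigr were abundant in each library, and Derl3 was lower. Igj, the J chain gene, had 611.2 and 507.8 FPKM in the mutants, against 1209 and 532.5 FPKM in controls 1 and 2, or 2.27-fold between the controls (2.23 to 2.31). Derl3, a part of the machinery that clears misfolded proteins from the endoplasmic reticulum, had 7.36 and 8.57 FPKM in the mutants and 17.0 and 8.36 FPKM in the controls. Both were highest in control 1, and the other 3 libraries were close. Sdc1, the syndecan CD138 of plasma cells and epithelium, had 67.1 and 78.7 FPKM in the mutants and 73.0 and 90.9 FPKM in the controls, and was lower in control 1 than in control 2. Pigr, the epithelial receptor for polymeric immunoglobulin, had 1027 and 1084 FPKM in the mutants and 1347 and 1208 FPKM in the controls. The J chain gene thus stood apart in control 1 by a factor that lay outside the intervals of both Cd79a and Pigr.

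The control libraries were then set side by side over all 30 genes, as log2(FPKM + 0.5), on which differences of low genes come out too small. Of the 30, 22 were at least 2-fold higher in control 1 than in control 2, and 0 were at least 2-fold lower. Over the 13997 tested genes, those averaging 0.5 FPKM or more, 2.41% were at least 2-fold higher and 0.90% at least 2-fold lower, and over all 23074 symbols 1.63% were higher and 0.62% lower. The median log2 ratio was 2.14 over the 30 genes, 2.06 without Fcer2a, which control 2 lists at 0, and 0.06 over all tested genes. There is 1 library on each side, so this difference has no replicate check. Just inside the 2-fold limit was Igj at a log2 ratio of 1.18, and just outside it were Derl3 at 0.99 and Fcrl5 at 0.92.

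By role, all 3 receptors for BAFF and APRIL and both reticulum genes were at least 2-fold higher in control 1, as were 6 of 7 antigen receptor genes, 5 of 7 surface genes and 5 of 7 transcription factors. The corresponding counts were 1 of 3 for the plasma cell genes and 0 for Pigr. On this scale the 8 genes within 2-fold were Blnk, Cd38, Fcrl5, Prdm1, Xbp1, Sdc1, Derl3 and Pigr. As plain FPKM, control 1 over control 2 was 2.04 for Derl3 (1.67 to 2.49) and 20.4 for Fcrl5 (3.14 to 858.0), the second against 1 implied fragment. Among the 50 tested genes with the largest ratio, 16 were from the 30, and Ms4a1 held position 11. The genes with the largest ratio included Glycam1, a ligand for lymphocyte homing on venules of lymphoid tissue, at 0.345 and 0 FPKM in the mutants against 14.9 and 0 FPKM in the controls. They also included the small RNA and pseudogene entries Rnu11, Rpl34-ps1, Snora31, Snora34, Mir760, Snora21, Snora43 and Pisd-ps1.

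**Figure D2:**
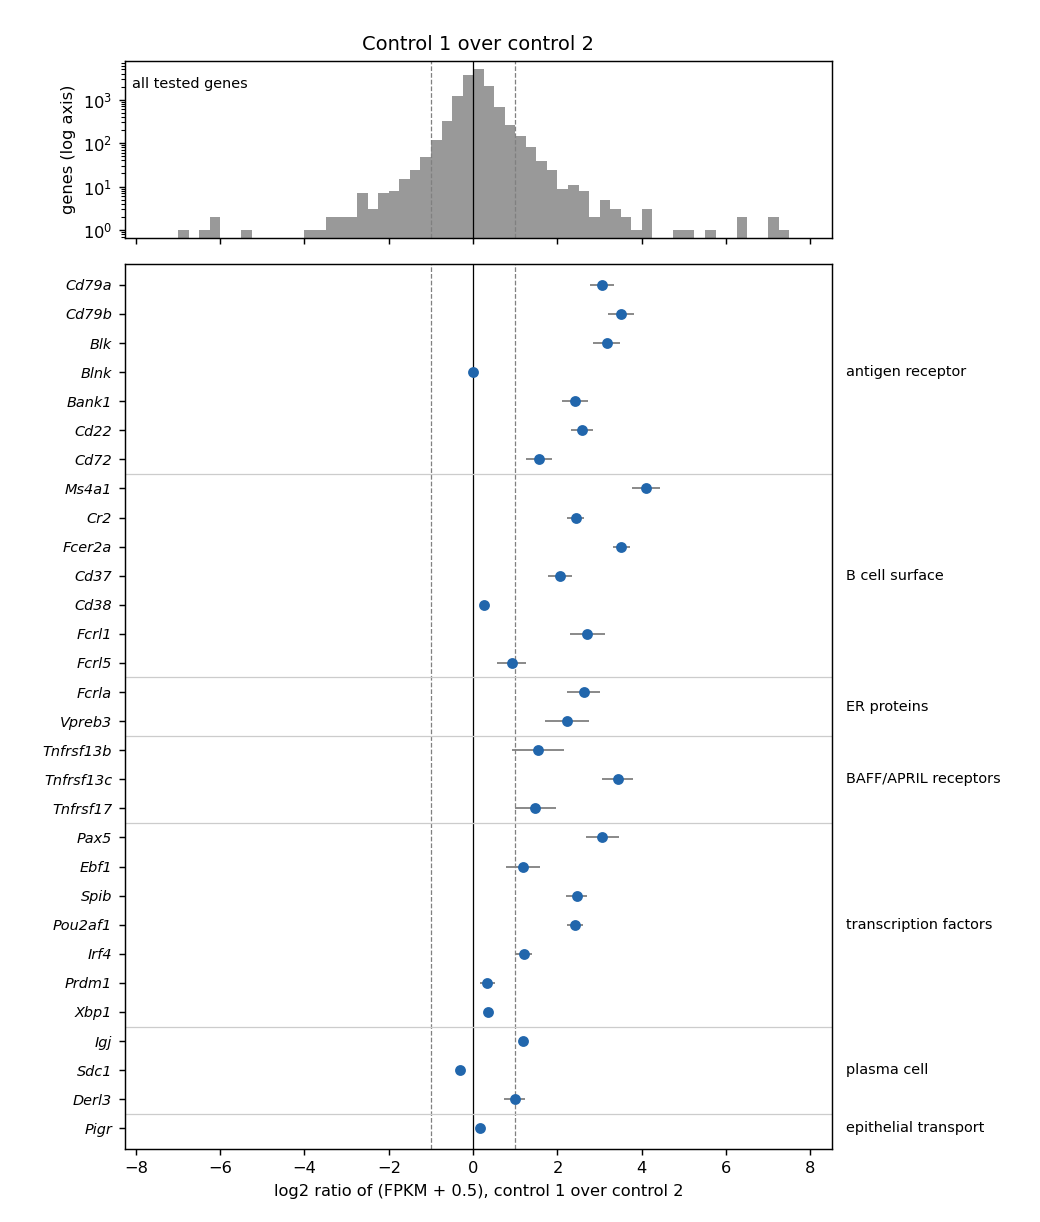
Log2 ratio of (FPKM + 0.5) in control 1 over control 2 for all tested genes (upper panel, log count axis) and for each B cell and plasma cell gene (lower panel, bars for counting error from the authors' 95% intervals, dashed lines at 2-fold). The median of the 30 genes is 2.14, Fcer2a is listed at 0 in control 2, and Blnk, Cd38, Prdm1, Xbp1, Sdc1 and Pigr lie near 0.

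The mutant libraries lay closer together. As log2(FPKM + 0.5), none of the 30 genes differed by 2-fold between mutant 1 and mutant 2, where 1.11% of all tested genes were at least 2-fold higher in mutant 1 and 1.56% at least 2-fold lower. The median log2 ratio of mutant 1 over mutant 2 was 0.16 over the 30 genes and −0.21 over all tested genes, and the largest size among the 30 was 0.88, for Fcrl5. As plain FPKM, mutant 1 was over 2-fold above mutant 2 in low genes, by 4.03 in Fcer2a, 2.86 in Cr2, 2.08 in Tnfrsf13c and 2.04 in Ebf1, and Fcrl5 and Pax5 were listed at 0 in mutant 2. Mutant 2 and control 2, of similar depth, were also close, with a median log2 ratio of mutant 2 over control 2 of 0.05 over the 30 genes and −0.03 over all tested genes.

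**Figure D3:**
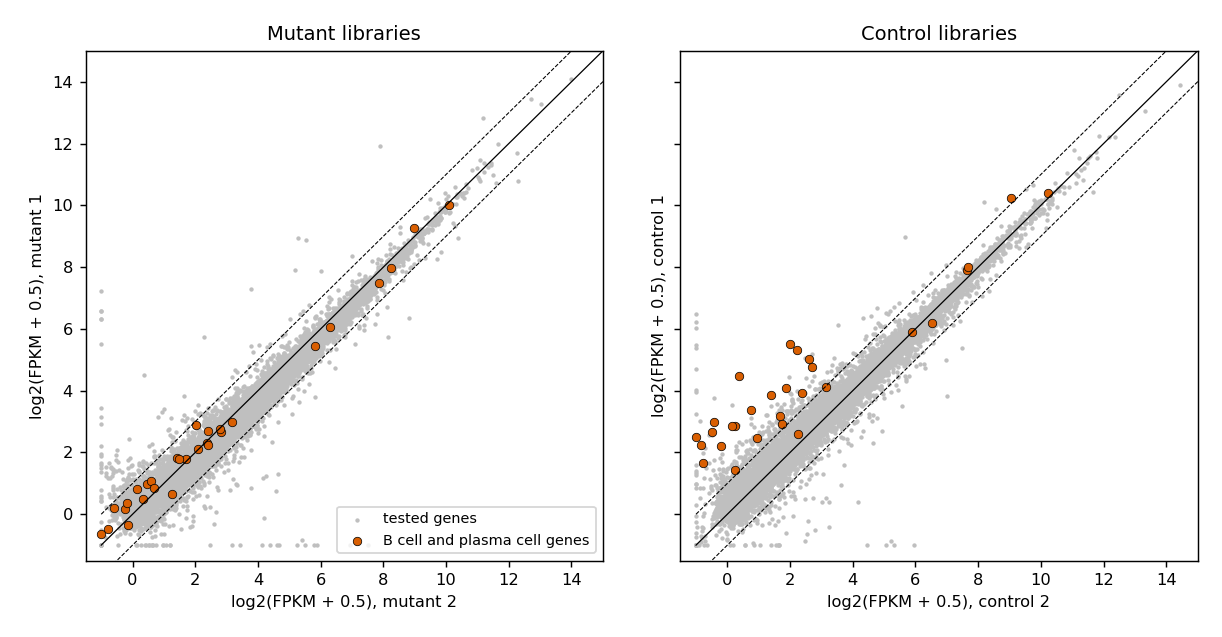
Log2(FPKM + 0.5) of the 2 mutant libraries against each other (left) and of the 2 control libraries (right), with all tested genes in grey, the 29 tested B cell and plasma cell genes in orange and dashed lines at 2-fold. The orange points follow the diagonal in the mutants, and 22 of them lie above the upper dashed line in the controls.

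The comparison of mutant with control colon asked whether these genes differed between the genotypes. Cre was named for the mutants only, and the controls had 1 floxed allele. Effects of these cannot be told apart from loss of Nkx2-2. None of the 29 tested genes passed limma at an adjusted p of 0.05, where 0.0643% of all tested genes did (0.0357% higher and 0.0286% lower), and the smallest adjusted p was 0.825. At an unadjusted p under 0.05 there was 1, Cd37, which was lower, against 4.82% of all tested genes in either direction and 4.12% lower. Of the 29, 27 had a change below 0, against 82.6% of all tested genes, and their median log2 change was −0.83, against −0.17 over all tested genes. Relative to the median of all genes the median was −0.66, and −0.69 after median ratio rescaling, which moved the median of all genes to 0.01 and left 25 of the 29 below 0. After that rescaling 0 of the 29 were lower at an unadjusted limma p under 0.05 and 1 was higher. Of all 14011 genes in that fit, 256 were lower and 209 higher. Quantile normalization gave 0 and 1 of the 29, against 264 and 219 of all 13997. Dropping small RNA and histone genes gave 0 and 1 as well, against 361 and 112 of 13907. Cd37 had a log2 change of −1.22 after median ratio rescaling. An exact permutation test of 2 libraries against 2 cannot give a p below 0.333. Of the 29, 5 had passed the filter on low values through control 1 alone, with a mean under 0.5 FPKM over the other 3 libraries.

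The levels and changes of 5 of these genes show how far the controls lay apart. Cd79a averaged 5.397 ± 0.872 FPKM in mutants and 21.6 ± 24.6 FPKM in controls (SD, n = 2 each), with a log2 change of −1.22 (SE 0.78, 95% interval −3.01 to 0.58, limma adjusted p = 0.825). Ms4a1 averaged 1.32 ± 0.435 FPKM in mutants and 11.3 ± 14.8 FPKM in controls, with a log2 change of −1.58 (SE 1.04, interval −3.97 to 0.80). Cd37 averaged 4.52 ± 0.419 FPKM in mutants and 16.2 ± 14.5 FPKM in controls, with a log2 change of −1.40 (SE 0.54, interval −2.65 to −0.15, limma unadjusted p = 0.0325). The level of Igj was 559.5 ± 73.1 FPKM in mutants and 870.8 ± 478.5 FPKM in controls, with a log2 change of −0.53 (SE 0.34, interval −1.297 to 0.24). Blnk, which was level between the controls, averaged 49.8 ± 9.01 FPKM in mutants and 59.1 ± 0.0902 FPKM in controls, with a log2 change of −0.26 (SE 0.19, interval −0.69 to 0.18).

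The direction of the group difference depended on which control was used. Without control 1 the median log2 change of the 29 genes was 0.07, 10 genes were below 0 against 75.5% of all tested genes, and none passed at limma's adjusted p of 0.05, where 0.886% of all tested genes did, 0.507% as higher. The log2 change was then 0.32 for Cd79a (interval −0.36 to 1.00), 0.47 for Ms4a1 (−0.28 to 1.22), −0.37 for Cd37 (−1.05 to 0.31) and 0.07 for Igj (−0.45 to 0.58). In that fit 2 genes had an unadjusted limma p under 0.05, Tnfrsf13c at 0.91 (interval 0.12 to 1.70) and Tnfrsf17 at 0.75 (0.07 to 1.44), both higher in the mutants, with adjusted p-values of 0.975 and 1.00. Of all tested genes, 3.7% had such a p in either direction and 1.33% as higher. Without control 2, so that control 1 was the lone control, the median was −2.24 and 21 of the 29 passed as lower, against 1.95% of all tested genes as lower and 2.59% in either direction. Those 21 include the 5 genes that passed the filter through control 1 alone, which fixes that they were lower elsewhere, and 16 of the 24 others passed. Each of these fits has a lone control, whose own spread cannot be measured. In both fits, calls and intervals rest largely on a spread shared by genes of similar level, not on each gene's own. Cd79a and Cd37, for example, both had an SE of 0.347 without control 1.

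The mutant and control ranges overlapped in 24 of the 30 genes. Both mutants lay below both controls in 5 of the 30, namely Blnk, Cd37, Vpreb3, Prdm1 and Pigr, where 35.1% of all tested genes did. Both mutants lay above both controls in 1, Cd38, where 3.39% of all tested genes did. For Cd38 the levels averaged 276.1 ± 36.3 FPKM in mutants and 217.4 ± 28.2 FPKM in controls (SD, n = 2 each), a log2 change of 0.34 (SE 0.18, interval −0.08 to 0.77, limma adjusted p = 0.825). It stayed above 0 without control 1 (0.48) and without control 2 (0.21). In the authors' deposited table Cd38 has mean normalized counts of 10590 in mutants and 7516 in controls, a p-value of 0.000643 and an adjusted p of 0.957. That table lists the 29 others with an adjusted p of 1.00 each, among them Cr2 with mean counts of 12.2 in mutants and 97.9 in controls and a ratio of mutant to control of 0.124.

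**Figure D4:**
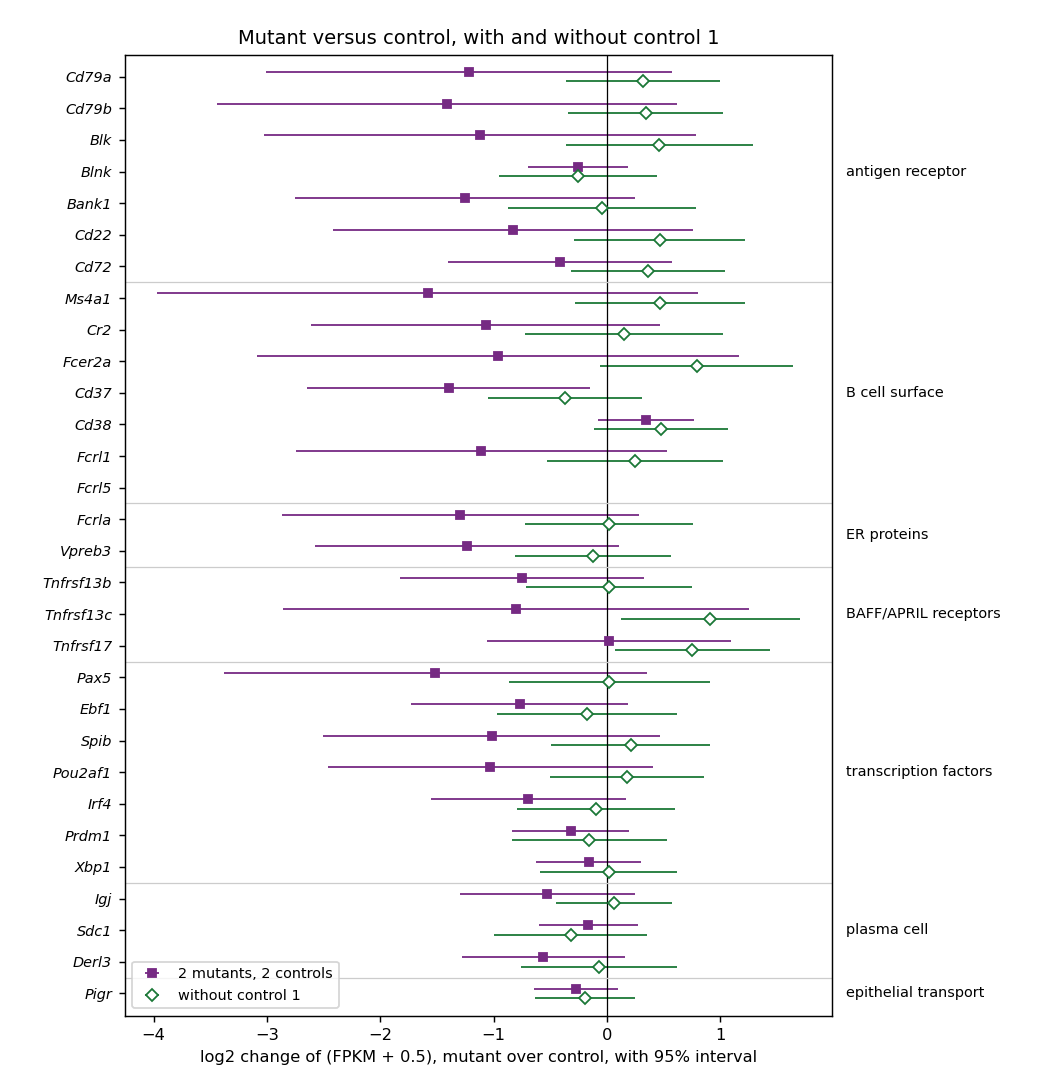
Log2 change of (FPKM + 0.5) in mutant over control for each tested gene, with 95% intervals from limma, using all 4 libraries (squares) and without control 1 (diamonds). The squares run from −1.58 (Ms4a1) to 0.34 (Cd38), and the diamonds from −0.37 (Cd37) to 0.91 (Tnfrsf13c). Intervals of the diamonds rest on a spread shared by genes of similar level.

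Other lists of the same tissue were read beside these genes, and their part in the result was not tested. Of 25 further B cell genes, each was highest in control 1 and 17 were at least 2-fold higher there than in control 2. Of 9 germinal centre genes, 8 were highest in control 1 and 6 at least 2-fold higher. All 7 genes of the list for lymphoid stroma and follicular dendritic cells outside the 30 were at least 2-fold higher in control 1. Their summed level was 64.2 and 67.9 FPKM in the mutants against 273.8 and 74.2 FPKM in the controls. Cxcl13, Mfge8 and Clu made up most of it, and which cells their RNA came from was not tested. Cxcl13, the chemokine that draws B cells into follicles, had 21.6 and 25.7 FPKM in the mutants and 101.2 and 26.7 FPKM in the controls. Mfge8 had 25.9 and 27.8 FPKM in the mutants and 91.1 and 32.8 FPKM in the controls, and Clu had 12.8 and 10.6 FPKM in the mutants and 69.2 and 11.1 FPKM in the controls.

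T cell genes were higher in control 1 by less. Each of the 14 was highest in control 1, 3 were at least 2-fold higher than in control 2, and the median log2 ratio was 0.74. Their summed level was 37.6 and 50.5 FPKM in the mutants against 104.8 and 54.4 FPKM in the controls. Without control 1 the changes of 13 of 14 were still below 0, against 75.5% of all tested genes, with a median log2 change of −0.35, against −0.14 over all tested genes. In that fit 14 of 14 colon epithelium genes, 11 of 12 myeloid genes and 7 of 8 smooth muscle genes were below 0 as well. Of 11 other plasma cell genes, which include secretory genes that epithelium also uses, 2 were at least 2-fold higher in control 1, and the median log2 ratio was 0.26. The 5 genes of B cell precursors summed to 0.411 and 0.265 FPKM in the mutants and 0.559 and 0.518 FPKM in the controls, and Igll1 was listed at 0 in each library.

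Of the M cell list, Gp2, a receptor that defines mature M cells, was listed at 0 in each library, and 1 of the 6 genes outside the 30 was at least 2-fold higher in control 1. Myeloid genes had a median log2 ratio of 0.49 with 0 of 12 at least 2-fold higher. Smooth muscle and fibroblast genes had medians of 0.17 each, and fat had −0.07. Colon epithelium genes ran the other way, with a median of −0.31, a summed level of 26281 and 26324 FPKM in the mutants and 24001 and 32831 FPKM in the controls, and 1 of 14 at least 2-fold lower in control 1. That gene, named after its values were seen, was the anion exchanger gene Slc26a3, at 78.8 and 95.02 FPKM in the mutants against 75.3 and 170.3 FPKM in controls 1 and 2. Pancreas genes, a check for tissue cut with the bowel, summed to at most 0.664 FPKM.

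**Figure D5:**
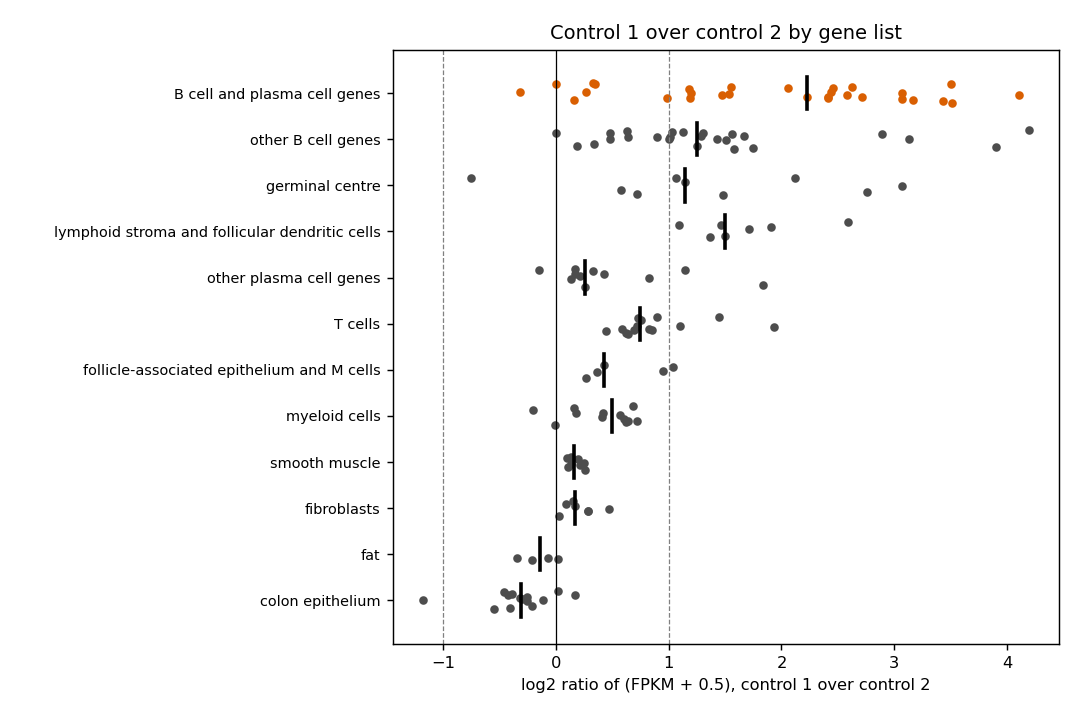
Log2 ratio of (FPKM + 0.5) in control 1 over control 2 for the tested genes of each list (points) with the list's median (bars) and dashed lines at 2-fold. B cell, germinal centre and lymphoid stroma lists have medians above 1, T cell and myeloid lists have medians between 0 and 1, and colon epithelium has its median at −0.31.

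For 6 of the 30 genes the files hold more than 1 isoform. In control 1, 95.9% of the Fcer2a estimate fell on isoform NM_013517. The Cd22 estimate in control 1 fell mainly on NM_001043317, at 5.91 FPKM, with 0.751 FPKM on NM_009845. In both mutants the Cd22 estimate fell on NM_009845, at 1.48 and 0.872 FPKM, and NM_001043317 was near 0, whereas control 2 had 0.696 FPKM on NM_001043317. In other genes the mutants split differently from each other. The Fcrla estimate fell mainly on NM_145141 in mutant 1, at 1.27 FPKM, and on NM_001160215 in mutant 2, at 1.11 FPKM, and that of Fcrl1 on NM_178165 in mutant 1, at 0.896 FPKM, and on NM_001136236 in mutant 2, at 0.746 FPKM. Behind the Cd22 splits were 36.3 and 48.3 implied fragments in the mutants and 386.6 and 43.2 in the controls, and the split had no test.

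Since B cell genes differed together between the controls, the promoter sequences were read for motifs of B cell factors. RefSeq windows of 300 bases, from 250 before to 50 after a start site on build GRCm38.p6, were matched to 27 of the 30 genes, in 30 windows, with Igj under its newer name Jchain. Those of Ms4a1, Cd79b and Blk were not matched. The octamer ATGCAAAT, the site of the factors that Pou2af1 assists, was searched on both strands and found in 2 of 30 windows, those of Vpreb3 and Blnk, and in 1.74% of all 32851 windows. The E-box CAGGTG, a site of E proteins, was found in 14 of 30 windows and in 20.2% of all windows. The spaced pair CCCNNGGG, the core of the Ebf1 site, was found in 4 of 30 windows and in 13.7% of all windows. No overlap with another motif was taken out, and a match does not show that a factor binds.

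Shown are 3 promoters of genes that were higher in control 1 and, for contrast, that of Pigr, with octamer and E-box letters in capitals and the strand of the gene read 5′ to 3′. That of Cd79a is chr7:24897247-24897546 on the plus strand, that of Tnfrsf13c chr15:82224331-82224630 on the minus strand, that of Vpreb3 chr10:75948050-75948349 on the plus strand and that of Pigr chr1:130826434-130826733 on the plus strand.
Cd79a: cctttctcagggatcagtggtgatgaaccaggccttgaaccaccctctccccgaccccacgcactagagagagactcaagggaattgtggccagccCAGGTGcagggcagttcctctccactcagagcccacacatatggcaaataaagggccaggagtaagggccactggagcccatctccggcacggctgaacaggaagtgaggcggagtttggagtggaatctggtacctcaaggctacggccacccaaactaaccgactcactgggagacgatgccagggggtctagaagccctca
Tnfrsf13c: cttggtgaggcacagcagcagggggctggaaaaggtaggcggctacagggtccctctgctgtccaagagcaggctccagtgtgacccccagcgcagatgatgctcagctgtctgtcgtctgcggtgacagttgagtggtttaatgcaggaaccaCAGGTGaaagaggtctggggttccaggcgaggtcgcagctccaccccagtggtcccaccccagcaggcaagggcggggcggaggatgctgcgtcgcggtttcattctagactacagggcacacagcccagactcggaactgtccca
Vpreb3: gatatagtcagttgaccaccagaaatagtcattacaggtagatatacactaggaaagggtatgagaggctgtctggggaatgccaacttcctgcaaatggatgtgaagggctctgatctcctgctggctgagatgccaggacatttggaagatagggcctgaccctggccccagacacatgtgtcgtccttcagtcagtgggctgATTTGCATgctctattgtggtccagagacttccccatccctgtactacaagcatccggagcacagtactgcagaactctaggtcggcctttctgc
Pigr: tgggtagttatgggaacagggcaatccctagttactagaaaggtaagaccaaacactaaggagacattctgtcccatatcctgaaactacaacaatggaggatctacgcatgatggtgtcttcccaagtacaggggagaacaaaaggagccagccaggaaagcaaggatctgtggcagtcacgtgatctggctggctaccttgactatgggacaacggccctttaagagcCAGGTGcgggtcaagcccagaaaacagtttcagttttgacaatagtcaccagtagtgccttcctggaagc
The E-box starts at base −154 from the start site in Cd79a, −96 in Tnfrsf13c and −20 in Pigr, and the octamer of Vpreb3, read as its reverse complement, starts at −45. Of the 22 genes at least 2-fold higher in control 1, 19 had a window and 9 of them held the E-box, against 5 of the 8 other genes. The E-box was therefore not limited to the genes that differed between the controls, and the octamer stood in Vpreb3, with a control ratio of 5.27-fold, and in Blnk, with 1.00-fold. On build mm9, which the files use, Cd79a lies at 25682530 to 25687216 of chromosome 7, Cd79b at 106172655 to 106175843 of chromosome 11, Ms4a1 at 11325093 to 11340641 of chromosome 19, Pax5 at 44544378 to 44723312 of chromosome 4 and Igj at 88948834 to 88956922 of chromosome 5.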

How the data were processed

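Per the submitters' processing notes, the reads were handled with bcl2fastq 1.8.4, TopHat, Cufflinks and DESeq on mouse build mm9, with other versions not given in the sources used here. Per the file headers, the authors gave FPKM with a 95% interval and a status for 23699 gene rows and 30028 isoforms per library, and their isoform files add a coverage signal and transcript length. For 23284 genes, the authors' deposited comparison gives group means of normalized counts (a signal), a fold ratio with its log2, and the p-value before and after adjustment. FPKM are not counts, so no count test was run.

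Rows without status OK in each library (306) were left out and rows of 1 symbol summed. The 13997 genes averaging 0.5 FPKM or more entered limma 3.58.1 in R 4.3.3 on a log2(FPKM + 0.5) scale, with a variance trend and Benjamini-Hochberg adjustment over all of them. The fit was also run on simulated data as a check of the code. Their spread was drawn around the median of all tested genes, and the outcome is not used for any result here. The interval of FPKM × (1 ± 2/√N) gave N, the implied fragments, which lay within 0.05 of a whole number in 87.4% to 88.9% of low genes with 1 isoform. Depth came from coverage over FPKM. Spread between libraries, on which each p-value rests, may be technical only. The genes and lists were chosen with earlier results of these data known. The text names the 30 genes, Nkx2-2, the most abundant genes of other lists, the genes of largest and smallest control ratio, and those said to be named later, and some items of these lists are not reported here. Alternatives covered the pseudocount, filter, scaling, variance model, row handling, a replicate block, leaving out single libraries and the authors' table.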

Additional observations from a re-analysis of the deposited data

How the results depend on the processing

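Of all tested genes, 9 passed limma's adjusted threshold as reported, 2 with no filter on low values, 3 after median ratio rescaling, 2 after quantile normalization, 0 when histone and small RNA genes were dropped, and 8 to 362 when 1 library was left out in turn. Of the 29 tested B cell and plasma cell genes, 0 passed as reported and under each of these other than leaving out a library, where 0 to 21 passed. Their median log2 change was −0.83, and −2.24 to 0.065 when a library was left out. The replicate number as a block gave 195 calls among all 13997 tested genes, 109 of them lower. Of the 29 genes 9 passed, all lower (Cd79a, Cd79b, Bank1, Ms4a1, Cd37, Fcrla, Vpreb3, Pax5 and Pou2af1). Bank1 and Pax5 had passed the filter on low values through control 1 alone, which fixes that they were lower elsewhere. The replicate numbers were not taken to pair the libraries, since the labels state no pairing. Across the tested genes, the difference between the control libraries and that between the mutant libraries had a correlation of −0.00217. With 1 such difference per group, this cannot show whether the numbers pair the libraries. For the control libraries, the median log2 ratio was 1.83 with a pseudocount of 1, and 21 to 24 genes were at least 2-fold higher over the alternatives. The cause of these shifts was not tested.

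The change turned to 0.025 for Xbp1 and 0.021 for Sdc1 after median ratio rescaling. Over the fits that left out 1 library, the log2 change ranged over −2.75 to 0.32 for Cd79a, −3.16 to 0.34 for Cd79b, −2.71 to 0.46 for Blk, −2.12 to 0.46 for Cd22 and −1.19 to 0.36 for Cd72. It ranged over −3.63 to 0.47 for Ms4a1, −2.29 to 0.15 for Cr2, −2.72 to 0.79 for Fcer2a, −2.46 to 0.25 for Fcrl1 and −2.61 to 0.017 for Fcrla. It was −1.52 to 0.016 for Tnfrsf13b, −2.52 to 0.91 for Tnfrsf13c, −0.72 to 0.75 for Tnfrsf17, −3.05 to 0.021 for Pax5, −2.24 to 0.21 for Spib, −2.24 to 0.18 for Pou2af1, −0.35 to 0.025 for Xbp1 and −1.12 to 0.065 for Igj. In each of these but Xbp1 the lowest came without control 2 and the highest without control 1.

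Depth limits Pax5, Fcrl5, Cr2 and Fcer2a most, the mutant and control groups have 2 libraries each, and leaving out control 1 turned the direction in 17 of the 29 genes.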

Other observations

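The genes with the smallest ratio of control 1 over control 2 held no B cell or plasma cell gene. They were Mir215, Snora65, Gm1987, Snora28, Snora7a, Gt(ROSA)26Sor, Apoa1, Akp3, Krt12 and Rpl34. Gt(ROSA)26Sor, the transcript of the Rosa26 locus, had 22.6 and 19.6 FPKM in the mutants, against 0.807 FPKM in control 1 and 17.4 FPKM in control 2. The ribosomal protein gene Rpl34 had 156.9 and 129.7 FPKM in the mutants, against 13.6 and 128.9 FPKM in controls 1 and 2, and its pseudogene Rpl34-ps1 was among the genes of largest ratio. Whether reads were shared between Rpl34 and its pseudogene was not tested here, so both values are uncertain.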
